A study of Mus musculus with 4 samples.

Results

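The 42 genes described here are the position genes of the mouse: the 39 members of the 4 Hox clusters and 3 limb factors, Tbx4, Tbx5 and Pitx1. They were chosen by symbol alone from the 32285 genes counted, with no measured value in the choice, and comprise 11 Hoxa, 10 Hoxb, 9 Hoxc and 9 Hoxd genes. The cells were lymph node stromal cells, sorted alive as negative for CD45 and CD31 and read by droplet 3′-end RNA sequencing, which counts each captured transcript once as a unique molecular identifier (UMI). Each of the 4 libraries pooled axillary and brachial nodes, which drain the forelimb side, with inguinal nodes, which drain the flank and hindlimb side, so no label gives the site of a cell. The genotype of control 1 was Ccl19-Cre x R26R-EYFP, and Notch2 cKO 1 came from mice that were no littermates and carried Notch2fl/fl as well; these are batch 1, with 6 mice in each pool. In batch 2, with 3 mice in each pool, the labels of control 2 conflict: its genotype is given as Notch2fl/fl with no Cre, whereas its title names Ccl19-Cre and WT. It was used as a control on either reading, and Notch2 cKO 2 came from littermates with Ccl19-Cre and Notch2fl/fl, without the reporter. All mice were females of 12 weeks on the C57BL/6 background. The Ccl19 promoter drives Cre in reticular cells and their precursors, so other cells of the sort can keep Notch2.

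Hox genes encode homeodomain transcription factors that lie in 4 clusters, and their order along a cluster follows the order of the body regions in which they are switched on in the embryo: low-numbered (anterior) genes towards the head, high-numbered (posterior) genes towards the tail and the limb tips. Genes with the same number in different clusters are paralogues. Adult fibroblasts are known to keep much of this pattern, so the Hox genes of a fibroblast can reflect where in the body it arose. Tbx5 is the T-box factor of the embryonic forelimb, Tbx4 its hindlimb counterpart, and Pitx1 a homeodomain factor that acts upstream of Tbx4.

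All values below are for cells called fibroblast-like by their marker genes, unless another class is named. Where 4 values follow each other they stand for control 1, Notch2 cKO 1, then control 2, Notch2 cKO 2. The libraries held 7891, 6790, 12100 and 9590 such cells, with median UMIs per cell of 2084, 2932, 6418 and 7915. The batches therefore differed in depth as well as in mice. The mesenchymal receptor gene Pdgfra was at 332 to 918 UMIs per 1000000 UMIs of a library's fibroblast-like cells (CPM) and the reticular cell chemokine gene Ccl19 at 1059 to 4054 CPM. The leukocyte gene Ptprc, which encodes CD45, stayed under 1 CPM (0.09 to 0.44), and the endothelial gene Pecam1, which encodes CD31, was at 1.40 to 21.4 CPM. Notch2 was at 38.9, 19.4, 58.6 and 39.2 CPM, lower in the cKO library of each batch. These 3′-end counts do not read a deleted internal exon and so do not check the deletion. Between 18 and 50 cell barcodes were shared by any pair of libraries.

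Hox genes of the middle of the clusters gave most of the signal. Genes of groups 3 to 9 made up most of the Hox UMIs, group 10 was lower, and groups 12 and 13, the most posterior, were at or near 0. Summed over paralogues and averaged over the 4 libraries, group 2 was at 13.9 CPM and group 3 at 45.7. The sums stayed between 42.7 and 79.5 CPM from group 4 to group 9, with the highest in group 8. They fell to 24.6 CPM in group 10 and 3.81 in group 11, no UMI was found for group 12, and group 13 held a mean of 0.003 CPM. Of the 42 genes, 30 had a UMI in every library and 5 had none in any (Hoxa13, Hoxb13, Hoxc12, Hoxd12 and Hoxd13). A gene with no UMI could still lie below the level of 3 counts, which is 0.17, 0.14, 0.04 and 0.04 CPM by library. A mean of 10 CPM or more was reached by 13 genes, 15 lay between 1 and 10 CPM, and 9 had some UMIs but a mean under 1 CPM. Because each captured transcript is counted once, levels of different genes were compared without scaling to length. Whether introns were counted is not given, and the part of gene length in these levels was not tested. Fewer cells with a gene and less RNA of it in each cell cannot be told apart in these sums.

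By cluster, Hoxc genes gave the most UMIs in all 4 libraries (147 to 188 CPM), followed by Hoxa (125 to 138), Hoxd (65.4 to 97.9) and Hoxb (45.2 to 58.6). In build GRCm38, with the GENCODE M21 gene models, Hoxc lies at chr15:102921103-103036852 on the forward strand and Hoxa at chr6:52155590-52260880 on the reverse strand. Hoxd lies at chr2:74668310-74765142 and Hoxb at chr11:96194316-96368256, both on the forward strand. The models of 10 members share exon bases with another gene of the same strand, so some of their reads could be assigned to the other gene. Hoxd3 and Hoxd4 share the most, 62.3% and 52.3% of their exon bases with other models, and Hoxc5 and Hoxc10 share 166 bases.

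Hoxc8, a gene of the thoracic level, had the highest mean: it was at 53.4, 62.6, 39.3 and 51.1 CPM. Hoxc6, expressed from the forelimb level backwards in the embryo, was at 65.2, 58.7, 44.2 and 36.6 CPM. Hoxd9 was at 43.8, 40.8, 29 and 44.6 CPM. Control 2 was the lowest library for Hoxc8 and Hoxd9, and Notch2 cKO 2 for Hoxc6, and over both batches control and cKO values overlapped for all 3 genes. Within each batch Hoxc8 was higher and Hoxc6 lower in the cKO library, whereas Hoxd9 was lower in batch 1 and higher in batch 2. Hoxa7 was at 40.9, 30.7, 31.4 and 33.2 CPM. Hoxa5, a gene of the neck and upper thorax, was at 40.2, 34.4, 30.7 and 26.1 CPM. Hoxa3, needed for thymus and parathyroid development, was at 18.4, 20.7, 47.3 and 39.4 CPM. Hoxa3 was thus the gene in which the batches stood farthest apart among the 12 highest members, with both batch 2 libraries above both of batch 1. Hoxc4 was even across libraries, at 29.8, 29.4, 27.4 and 32.0 CPM, whereas Hoxd8 was higher in batch 1, at 29.6 and 36.2, than in batch 2, at 21.7 and 21.8 CPM. The other 4 of the highest 12 were Hoxb4 (11.5 to 17.5 CPM), Hoxc9 (13.5 to 16.4), Hoxc10 (11.6 to 18.0) and Hoxb7 (9.09 to 14.9). The neighbours in this order of means, such as Hoxc8 at 51.6 and Hoxc6 at 51.2 CPM, or Hoxc9 and Hoxc10 at 14.8 each, lay within the spread of their libraries.

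**Figure D1:**
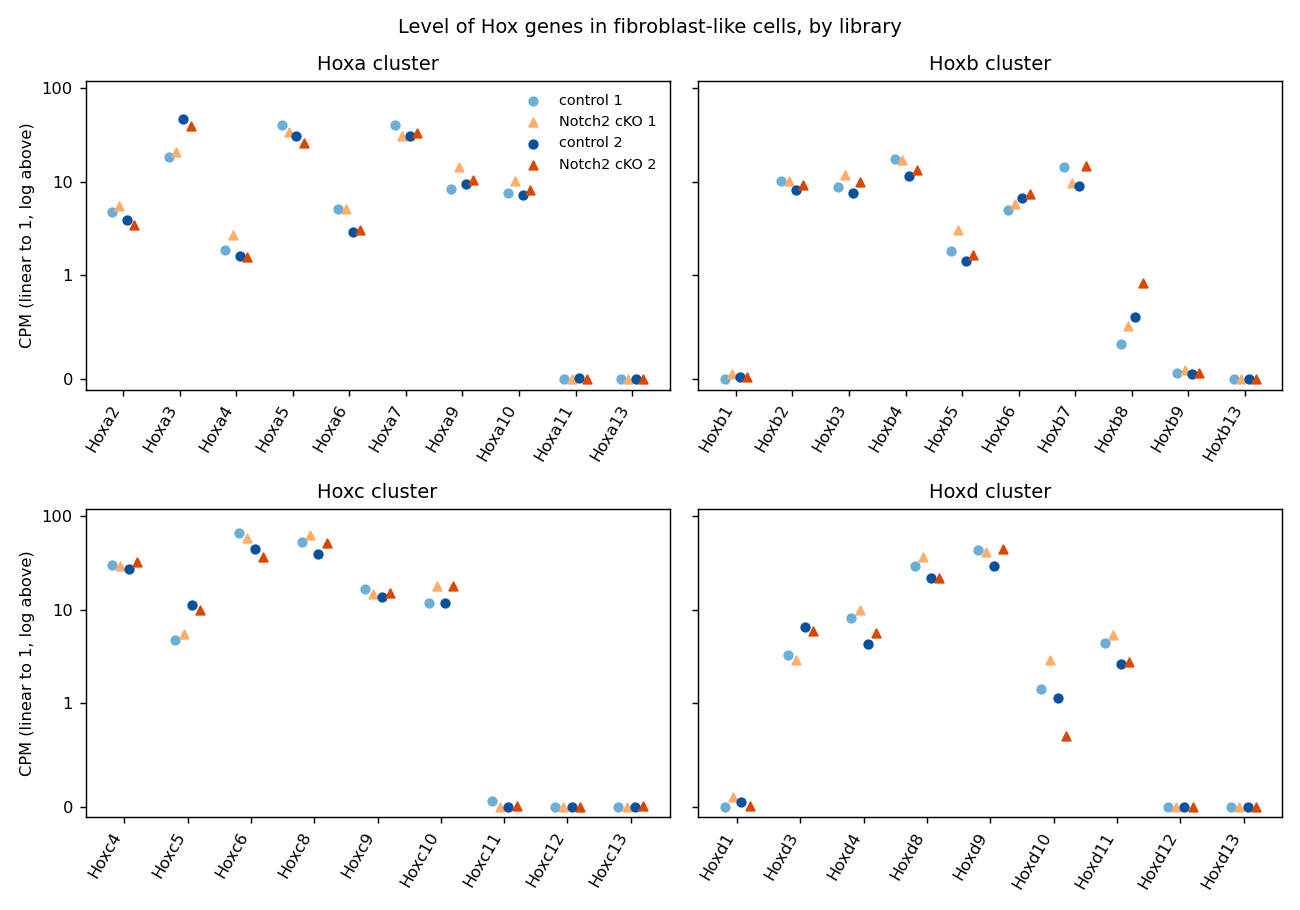
Level of Hox genes in fibroblast-like cells, in CPM on an axis that is linear to 1 and logarithmic above, with 1 panel per cluster and 1 point per library (circles for controls, triangles for Notch2 cKO, light colours for batch 1). The highest points belong to groups 3 to 9, such as Hoxc8 (39.3 to 62.6 CPM), and the genes of groups 12 and 13 sit at or next to 0.

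Of the limb factors, Tbx5 was low but above the level of 3 counts in every library, and Pitx1 and Tbx4 were at the edge of detection. Tbx5 was at 0.80, 2.06, 1.68 and 0.75 CPM, from 14, 44, 140 and 61 UMIs. The highest and the lowest of these values both belong to Notch2 cKO libraries, so the groups overlap. Pitx1 had 3 UMIs in control 1, 3 in control 2 and none in the cKO libraries, and Tbx4 had 3 UMIs in each library of batch 2 and none in batch 1. The hindlimb pair was therefore at or under the level of 3 counts in every library, and differences in it were not detectable at this depth.

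In single cells, cells with at least 2000 UMIs were thinned to exactly that number, which left 30420 of the 36371 fibroblast-like cells (4351, 5582, 11237 and 9250 by library, with 3540, 1208, 863 and 340 shallower cells left out). No Hox UMI remained in 44.2% of the thinned cells, and 40.7% had UMIs from a single Hox cluster. UMIs of 2 clusters were seen in 13.2%, of 3 clusters in 1.82% and of all 4 in 0.08%. A code of several genes was thus read in a minority of cells, and a cell without a UMI of a gene may still express it. The highest paralogue number with a UMI was 1 to 3 in 5.94% of cells, 4 or 5 in 10.4%, 6 or 7 in 12.9%, 8 in 11.1%, 9 in 10.4% and 10 or 11 in 5.12%. No cell held a UMI of group 12 or 13, 0 of 30420, which allows a share of at most 0.012% (exact upper bound, 95%). The mean number of members per cell was 0.87, 0.88, 0.76 and 0.82 by library. Without thinning it was 0.96, 1.34, 2.24 and 2.91, in the order of the libraries' depth. Hoxc8 was seen in 8.70% of thinned fibroblast-like cells but also in 2.96% of leukocyte-like cells (21 of 710), a class that came through the sort in small numbers, and in none of 123 epithelial-like cells. Median UMIs before thinning were 4252, 3513.5 and 5620 in these 3 classes. The source of the leukocyte-like share was not tested, and shares in fibroblast-like cells are to be read beside it.

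Among cell classes, named from marker genes and described without a test because the same cells made the clusters, several contrasts stood out. Of the fibroblast-like classes, Tbx5 was highest in adventitial-like cells (Pi16, Cd34 and Dpp4 among their markers), the fibroblasts around larger vessels. Their level pooled over libraries was 8.14 CPM against 0.28 in T-zone reticular-like and 1.56 in medullary-like cells, and by library it was 3.64, 10.1, 8.35 and 7.66 CPM. T-zone reticular-like cells stayed under 1 CPM in every library (0.10 to 0.89), so the classes did not overlap. Within the adventitial-like class the cluster led by Pi16 reached 24.3 CPM (14.5 to 32.7 by library), while cluster 6, 2676 of the 3822 cells of the class, was at 3.65. In control 1 the level of 3 counts was 21.8 CPM in the Pi16 cluster and 3.64 in the class, so low values there rest on few UMIs. Perivascular-like cells, which wrap vessels, were at 4.71 CPM (2.72, 7.81, 7.04 and 1.39 by library), a range that overlaps the adventitial-like one. Their cluster 20, of 119 cells, was at 27.6 CPM from 14 UMIs (interval for counting error 15.1 to 46.3), 12 of them in control 2. Adventitial-like cells made up 25%, 59.1%, 46.4% and 78.6% of the fibroblast-like cells with a Tbx5 UMI. Medullary-like cells made up 41.7%, 6.82%, 37.3% and 3.57%, the larger share in control 1, which had 12 such cells.

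Hoxd9 and Hoxc8 ran the other way. Hoxd9 was at 16.4 CPM in adventitial-like cells (21.8, 17.5, 11.7 and 20.9 by library) against 42.3 in T-zone reticular-like cells (49.0, 45.3, 33.3 and 46.2). Hoxc8 was at 25.3 against 51.7 CPM, and in every library the adventitial-like value was the lower. In perivascular-like cells Hoxb8 was at 0, 1.95, 3.83 and 9.24 CPM, from 0, 1, 31 and 53 UMIs, and in T-zone reticular-like cells at 0.22 to 0.91 CPM. Its raised level there thus rests on the libraries of batch 2. Hoxb2, a gene of the hindbrain, was at 19.02, 9.76, 20.99 and 26.0 CPM in perivascular-like cells against 10.1, 10.5, 8.81 and 9.48 in T-zone reticular-like cells, higher in 3 of the 4 libraries. Hoxb2 was also the member with the highest level in the 152 epithelial-like cells, 24.5 CPM from 31 UMIs (interval for counting error 16.6 to 34.7), where Hoxc8 was at 3.16 CPM. Hoxa5 was at 25.7 CPM in T-zone reticular-like cells, with 43.4 in the medullary-like class. The class mix moved with genotype: T-zone reticular-like cells were 47.9% and 38.4% of these cells in the controls and 69.1% and 63.8% in the cKO libraries.

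**Figure D2:**
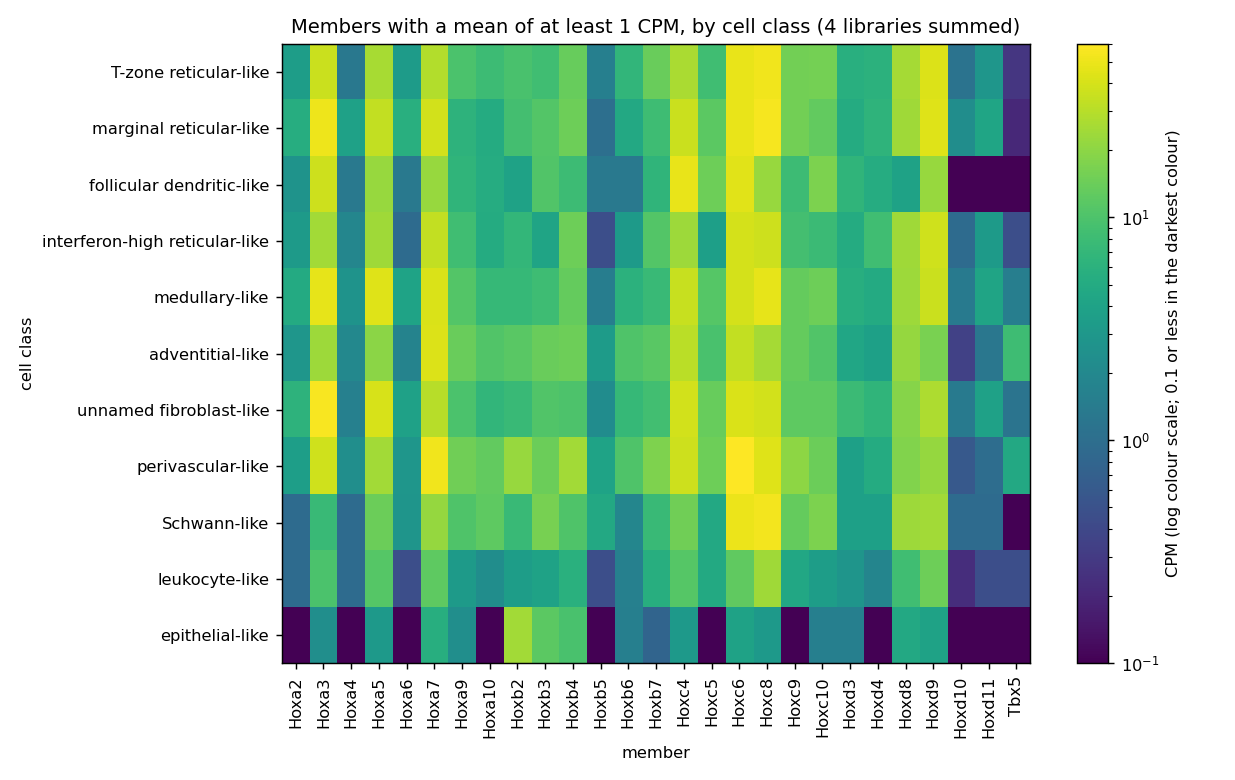
CPM of the members with a mean of at least 1 CPM (columns) in each cell class (rows), 4 libraries summed, on a logarithmic colour scale. Tbx5 is brightest in the adventitial-like row (8.14 CPM), Hoxb2 is raised in the perivascular-like row (22.4 CPM), and the epithelial-like row is dark for most members other than Hoxb2 (24.5 CPM).

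Whether Notch2 deletion in Ccl19-Cre cells goes with another Hox profile was tested with edgeR's quasi-likelihood test on counts summed per library, with batch as a block and Benjamini-Hochberg adjustment over all genes. No member was called: 0 of the 29 members tested, beside 2.97% of all 17216 genes (1.66% up and 1.31% down). The members' log2 differences, Notch2 cKO minus control, had a median of 0.05 (0.02 over all genes) and standard errors of 0.18 to 0.60. Their sign agreed between batches for 15 of 29. At an unadjusted p under 0.05 there were 2 members by edgeR and 0 by DESeq2. By edgeR 1 of them was Hoxc10. This gene of the lumbar level and hindlimb was at 11.8, 17.7, 11.6 and 18.0 CPM. Both cKO libraries lay above both controls, with a log2 difference of 0.56 ± 0.21 (SE, n = 2 libraries a group; edgeR adjusted p = 0.26).

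Within T-zone reticular-like cells, the largest class, 0 of 28 members were called, beside 5.88% of 15503 genes (3.02% up and 2.86% down). The median of their log2 differences was 0.08, against 0.02 over all genes, and 16 of 28 had 1 sign in both batches. Hoxc6 (-0.49 ± 0.20, edgeR adjusted p = 0.23) and Hoxa9 (0.59 ± 0.27, edgeR adjusted p = 0.30) passed an unadjusted 0.05, and by DESeq2 1 member did. Different clusters made up this class in the groups: clusters 0 and 5 held most of it in the controls, and clusters 2 and 3 in the cKO libraries. Within the cells with a Tbx5 UMI (12, 44, 110 and 56 cells by library), 0 of 4 testable members were called by edgeR, beside 0.371% of 4580 genes (0.0437% up and 0.328% down), and none at an unadjusted p under 0.05.

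The batches differed more than the genotypes. In the same fit, 8 of 29 members were called between batch 2 and batch 1, beside 25.7% of all genes, so the members' share was near the background; 3 rose (21.2% of all genes did) and 5 fell (4.43%). Their median log2 difference, batch 2 minus batch 1, was -0.35, against 0.02 over all genes. Hoxa3 rose by 1.03 ± 0.21 (SE, edgeR adjusted p = 0.0039) from the values given above. Hoxc5 was at 4.78 and 5.48, then 11.2 and 9.81 CPM (0.91 ± 0.25, edgeR adjusted p = 0.022). Hoxd3 was at 3.30 and 2.86, then 6.59 and 5.86 CPM (0.90 ± 0.29, edgeR adjusted p = 0.045). In all 3 genes every library of batch 2 lay above every library of batch 1.

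The 5 that fell were Hoxd4, Hoxc6, Hoxd8, Hoxd11 and Hoxa6. Hoxd4 was at 8.14 and 9.78, then 4.26 and 5.66 CPM (-0.98 ± 0.25, edgeR adjusted p = 0.014), the reverse of Hoxd3, with which it shares exon bases. Hoxc6 (-0.74) and Hoxd8 (-0.71) fell from the levels given above. Hoxd11 was at 4.44 and 5.38, then 2.61 and 2.74 CPM (-0.99 ± 0.32, edgeR adjusted p = 0.041). Hoxa6 was at 5.18 and 5.20, then 2.93 and 3.07 CPM (-0.91 ± 0.30, edgeR adjusted p = 0.049). In these genes, too, the libraries of the batches did not overlap. Gene length moved with part of the result: Hoxc5, Hoxa3 and Hoxd3 have annotated spans of 49.99, 44.3 and 36.5 kb, the longest of the 29 after Tbx5 (52.6 kb, log2 difference -0.39, not called), while Hoxd8, Hoxd11 and Hoxa6, which fell, span 3.32, 7.46 and 2.44 kb. Hoxd4 and Hoxc6, which also fell, are longer, at 17.2 and 13.6 kb, and Hoxb3 (24.6 kb, -0.37) and Hoxc4 (17.9 kb, -0.12) were not called. The count software version also differed between batches, per the file headers, and whether introns were counted is not given; the part of these in the result was not tested. Batch, depth, number of mice, reporter and any difference in the mix of node sites cannot be told apart. The count of 8 was not stable: it was 2 with DESeq2, 2 without scaling factors, 4 with a stricter cell filter, and 0 when any 1 of the 4 libraries was left out.

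**Figure D3:**
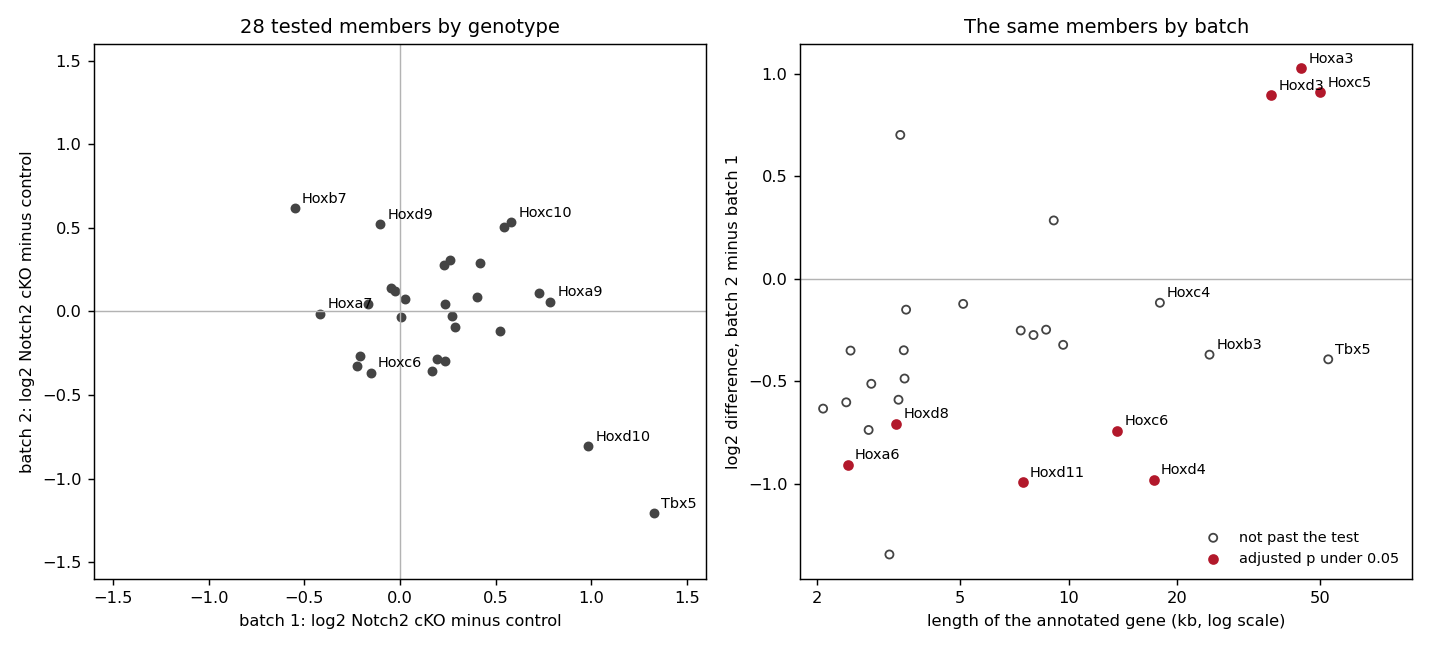
Left, log2 difference of Notch2 cKO minus control in batch 2 against that in batch 1 for 28 tested members, 1 point each; Hoxc10 lies at the upper right, while Hoxb7, Hoxd10 and Tbx5 have opposite signs in the batches. Right, log2 difference of batch 2 minus batch 1 against annotated gene length (kb, log scale), with called members filled; Hoxa3, Hoxc5 and Hoxd3 are the called points above 0.

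Which genes were found together in a cell was measured as the number of thinned cells with UMIs of both, over the number given by the product of the shares within each library. Of the 194 pairs with at least 10 cells expected, 114 had a ratio above 1. Pairs within a cluster had a median ratio of 1.20 (39 of 46 above 1), pairs between clusters 1.01 (75 of 148 above 1). In 24 pairs all 4 libraries lay above 1 and in 13 all lay below. Within a cluster these were 15 and 3 of 46 pairs, and between clusters 9 and 10 of 148. The highest such ratio was that of the neighbours Hoxc9 and Hoxc10: 55 cells held both against 23.1 expected, a ratio of 2.38, with 2.07, 2.09, 2.07 and 2.81 by library. Hoxc6 and Hoxc10 followed the same direction (117 cells, 1.61), as did Hoxd9 and Hoxd11 (24 cells, 1.75). The other 5 named pairs above 1 were Hoxb6 with Hoxc9 (1.86), Hoxa2 with Hoxa5 (1.85), Hoxb5 with Hoxc6 (1.70), Hoxa5 with Hoxd11 (1.67) and Hoxa5 with Hoxa6 (1.61). Some of these join genes of different clusters, on different chromosomes, a kind of pair whose median ratio was 1.01. The interval for counting error of Hoxb5 with Hoxc6 (17 cells) included 1, at 0.99 to 2.72. Those of the other named pairs above 1 excluded it, with the lowest bound, 1.01, for Hoxa5 with Hoxa6 (22 cells). The pairs were picked for their extreme ratios among 194, which these intervals do not allow for.

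The lowest ratio was that of Hoxa5 and Hoxc10, 29 cells against 51.6 expected (0.56; 0.88, 0.71, 0.35 and 0.48 by library). Hoxc4 and Hoxc10, of the same cluster but 6 paralogue groups apart, were at 0.68 (34 cells against 49.96). These were the 2 named low pairs that stayed below 1 at every depth and in both subsets tried, although Hoxa5 with Hoxc10 reached 0.99 without thinning. The other 5 named, Hoxa7 with Hoxd3 (0.58), with Hoxa2 (0.62), with Hoxd4 (0.69) and with Hoxb4 (0.69), and Hoxb2 with Hoxc10 (0.64), each rose above 1 under at least 1 other setting. Intervals for counting error included 1 for Hoxa7 with Hoxd3 (0.30 to 1.01, 12 cells) and with Hoxa2 (0.28 to 1.17, 9 cells). They also did so for Hoxa7 with Hoxd4 (0.41 to 1.09, 18 cells) and Hoxb2 with Hoxc10 (0.31 to 1.18, 10 cells). Those of the other named low pairs lay under 1, with the highest bound, 0.97, for Hoxa7 with Hoxb4 (35 cells). Cells of a library differ in class and depth, and the part of these in the ratios was not tested pair by pair.

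**Figure D4:**
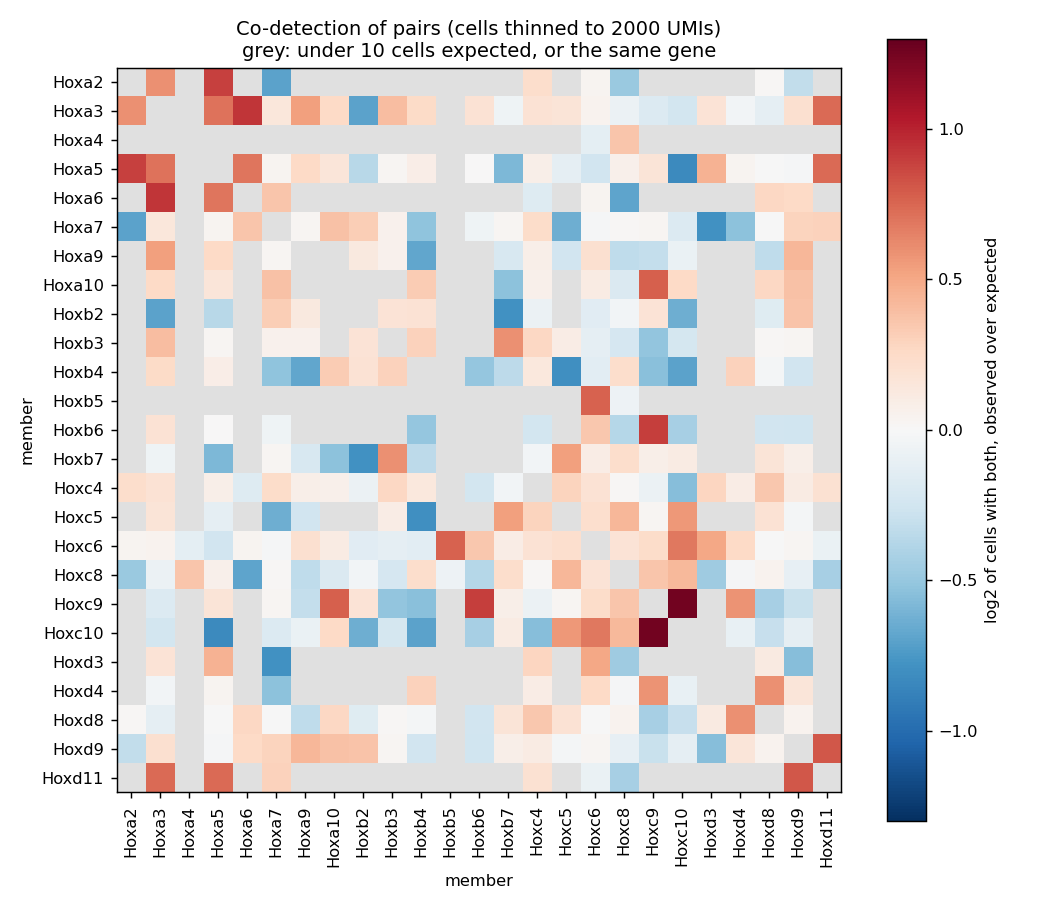
Co-detection of member pairs in fibroblast-like cells thinned to 2000 UMIs, as the log2 of observed over expected cells with both genes (red above, blue below 0; grey where under 10 cells were expected). Hoxc9 with Hoxc10 is the deepest red (ratio 2.38) and Hoxa5 with Hoxc10 the deepest blue (0.56).

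Hoxc10 was rarely found in a cell with Hoxd10 or Hoxd11. These pairs fell under the minimum of 10 expected cells after thinning and were picked after their values were seen, so they are given as description. In all 36371 unthinned cells, 3 held both Hoxc10 and Hoxd11 against 38.3 expected (ratio 0.08), and 1 held Hoxc10 and Hoxd10 against 15.02 (0.07). Conversely 41 cells held Hoxd10 and Hoxd11 against 3.39 expected (12.1, and 9.61 to 17.8 by library). Of the fibroblast-like cells, 2371 had a UMI of Hoxc10 and none of the Hoxd pair, 711 had Hoxd10 or Hoxd11 and no Hoxc10, and 4 had both. The share of Hoxc10 among the UMIs of the 3 genes was 66.9% (95% exact binomial interval 61.3 to 72.1, counting error only), 68.3% (64.2 to 72.1), 75.6% (73.2 to 77.9) and 84.1% (82.2 to 85.7). Both libraries of batch 2 lay above both of batch 1, and Notch2 cKO 2 above its control. The mix of node sites in each pool is not labelled.

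The start regions of Hoxd10 and Hoxd11 are shown because the cells split along these genes, with those of their neighbour Hoxd9 and of Hoxa5, the gene that was lowest beside Hoxc10. The sequences are RefSeq's, build GRCm38.p6, the 250 bases before the transcript start read 5′ to 3′ on the gene's strand, and 23 of the 42 members had an entry, with 25 starts. Capitals mark a match to TGATNNAT, on either strand, a motif bound by Pbx and Hox proteins together; TGACAG, the motif of the cofactors Meis and Pknox, was searched in the same way and is not present in these 5.
Hoxd11, chr2:74679308-74679557 (+): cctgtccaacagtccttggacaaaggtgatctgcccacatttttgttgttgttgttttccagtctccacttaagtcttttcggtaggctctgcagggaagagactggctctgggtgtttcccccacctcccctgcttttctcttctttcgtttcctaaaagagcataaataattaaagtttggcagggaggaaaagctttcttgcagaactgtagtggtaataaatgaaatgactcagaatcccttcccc
Hoxd11, chr2:74682073-74682322 (+): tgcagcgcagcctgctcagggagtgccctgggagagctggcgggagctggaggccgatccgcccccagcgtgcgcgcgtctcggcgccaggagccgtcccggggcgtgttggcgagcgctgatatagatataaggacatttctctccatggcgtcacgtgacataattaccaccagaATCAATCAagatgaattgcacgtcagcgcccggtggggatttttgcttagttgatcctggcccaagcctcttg
Hoxd10, chr2:74691641-74691890 (+): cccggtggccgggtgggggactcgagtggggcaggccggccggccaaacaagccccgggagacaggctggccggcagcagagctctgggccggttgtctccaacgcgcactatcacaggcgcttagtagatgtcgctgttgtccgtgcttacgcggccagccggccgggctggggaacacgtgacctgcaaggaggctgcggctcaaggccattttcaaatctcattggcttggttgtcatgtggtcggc
Hoxd9, chr2:74697513-74697762 (+): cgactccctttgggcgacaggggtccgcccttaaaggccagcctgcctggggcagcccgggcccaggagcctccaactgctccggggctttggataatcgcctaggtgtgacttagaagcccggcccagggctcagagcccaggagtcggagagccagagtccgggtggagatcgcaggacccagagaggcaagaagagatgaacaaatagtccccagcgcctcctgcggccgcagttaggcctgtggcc
Hoxa5, chr6:52204588-52204837 (-): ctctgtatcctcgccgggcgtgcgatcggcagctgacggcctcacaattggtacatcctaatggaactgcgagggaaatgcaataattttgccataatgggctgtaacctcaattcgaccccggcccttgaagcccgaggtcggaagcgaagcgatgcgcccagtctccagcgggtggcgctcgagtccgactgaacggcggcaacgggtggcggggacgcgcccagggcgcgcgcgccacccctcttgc
TGATNNAT was found in 4 of the 25 starts, Hoxd11, Hoxb8, Hoxb1 and Hoxa2 with 1 each, and in 7.68% of all 32851 promoters of this length. TGACAG was found in 2 of the 25, Hoxa2 and Hoxa3, and in 15.9% of all. The motifs do not overlap in letters. A match is a run of letters and not a shown binding site.

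To see what else differed between the code groups, cells with Hoxc10 and those with Hoxd10 or Hoxd11 were summed per library (186, 341, 774 and 1070 cells with Hoxc10, 92, 144, 257 and 218 with the Hoxd pair) and compared with the library as a block. The groups were defined after the co-detection values were seen, and the members' values are given as description. Of the 20 measured members that did not define the groups, 3 were higher in Hoxc10 cells in all 4 libraries (Hoxc9, Hoxc8 and Hoxc6), beside 8.45% of all genes, and 6 were lower in all 4 (Hoxd9, Hoxd8, Hoxd4, Hoxa3, Hoxa5 and Hoxa6), beside 7.26%. Hoxc9 was at 38.1, 30.8, 31.2 and 30.7 CPM in the Hoxc10 cells, and at 8.39, 0, 5.73 and 5.32 in the Hoxd cells. Hoxa5 was at 32.1, 23.1, 21.1 and 19.8 CPM in the Hoxc10 cells and at 58.7, 71.3, 50.6 and 34.2 in the Hoxd cells. Hoxd9 was at 22.1, 35.1, 24.4 and 37.0 CPM against 54.5, 58.5, 50.6 and 66.6. The Hoxc10 cells thus had more Hoxc9 and less Hoxa5 and Hoxd9 in each library. Hoxa6 was nearly level in control 2 (2.04 against 2.09 CPM, from 15 and 4 UMIs) and rested on 1 and 2 UMIs in control 1. Hoxd3 was not lower in all 4: in control 1 it was at 2.01 CPM in the Hoxc10 cells, from 1 UMI, and at 0 in the Hoxd cells. The fitted log2 differences, Hoxc10 minus Hoxd cells, were 2.65 for Hoxc9, 1.15 for Hoxc5, 0.80 for Hoxc8 and 0.57 for Hoxc6, and -1.09 for Hoxa5, -0.91 for Hoxd8 and -0.91 for Hoxd9. Hoxc5 shares exon bases with Hoxc10 and is uncertain for that reason. Unlike these Hoxc genes, Hoxc4 was lower in Hoxc10 cells (-0.68), with control 1 on the other side (0.49). Hoxa7 was at -0.70, again with control 1 on the other side (0.97), and Hoxa3 was at -0.62.

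Genes outside the Hox clusters also separated the groups. By edgeR's quasi-likelihood test, 101 other genes were higher in Hoxc10 cells and 120 in Hoxd cells, and with the 3 defining genes left out 2.12% of 10882 genes were called in either direction (0.965% higher in Hoxc10 cells and 1.16% lower). En1, a homeodomain factor of the ventral limb and body wall, was higher in Hoxc10 cells in all 4 libraries, by a log2 difference of 1.33 ± 0.24 (SE, n = 4 libraries; edgeR adjusted p = 0.00063), and without Notch2 cKO 2 by 1.43 (adjusted p = 0.053). Shox2, a homeodomain factor of the proximal limb, was lower by a log2 difference of -0.996 ± 0.26 (edgeR adjusted p = 0.025), with control 1 on the other side. The Shox2 call was lost with DESeq2 (adjusted p = 0.41), in T-zone reticular-like cells alone (0.43 by edgeR), and without control 2 (0.16) or Notch2 cKO 2 (0.59). Of a list of 31 other position and limb factors, 14 were testable and 3 were called, 1 higher and 2 lower in Hoxc10 cells. None of 8 Hox cofactors and none of 15 chromatin regulators was called by edgeR.

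Among further genes called, the 8 in each group with the largest difference, a mean of at least 20 CPM and 1 direction in all 4 libraries are named. Higher in Hoxc10 cells were St6galnac5 (1.39), Lingo2 (1.29), Tmeff2 (1.18), Col6a5 (1.08), Fhl2 (1.06), Apoc1 (1.03), F3 (1.02) and C1qtnf7 (1.02). Higher in Hoxd cells were Ntng1 (-1.64), Fbln5 (-1.15), Brinp3 (-1.09), Fbn2 (-1.04), Ptgs2 (-0.98), Sorbs2 (-0.97), Tnfsf11 (-0.92) and Has2 (-0.90). F3 encodes tissue factor, and Fbln5 and Fbn2 encode elastic fibre proteins. Ptgs2 is the inducible cyclooxygenase, Has2 a hyaluronan synthase, and Tnfsf11 the cytokine RANKL, a marker used here for marginal reticular-like cells. Tnfsf11 was also among the leading genes of medullary-like cluster 1, and Ptgs2 among those of medullary-like cluster 4. The groups differed in class and depth. Medullary-like cells were 24.7%, 8.8%, 36.6% and 12.7% of the Hoxc10 cells and 28.3%, 9.72%, 42.4% and 21.1% of the Hoxd cells. Adventitial-like cells were 5.91%, 9.68%, 3.62% and 7.1% against 1.09%, 7.64%, 2.33% and 3.21%. In all 4 libraries the Hoxc10 cells thus had the lower medullary-like and the higher adventitial-like share. The T-zone reticular-like share and depth did not differ in 1 direction. T-zone reticular-like cells were 59.7%, 76.5%, 46.5% and 74.0% of the Hoxc10 cells and 58.7%, 79.2%, 35.4% and 63.8% of the Hoxd cells. Median UMIs were 2523.5, 3240, 8702.5 and 9875 against 2297, 3718.5, 7072 and 9540.5, so Notch2 cKO 1 ran the other way in both. Leaving out Notch2 cKO 2, the library with the most Hoxc10 cells, left 28 genes higher and 49 lower, DESeq2 called 32 and 29, and without the library block 0 and 1 were called. Within T-zone reticular-like cells alone 54 other genes were higher and 72 lower, and En1 differed by 1.23 and Tnfsf11 by -1.72.

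**Figure D5:**
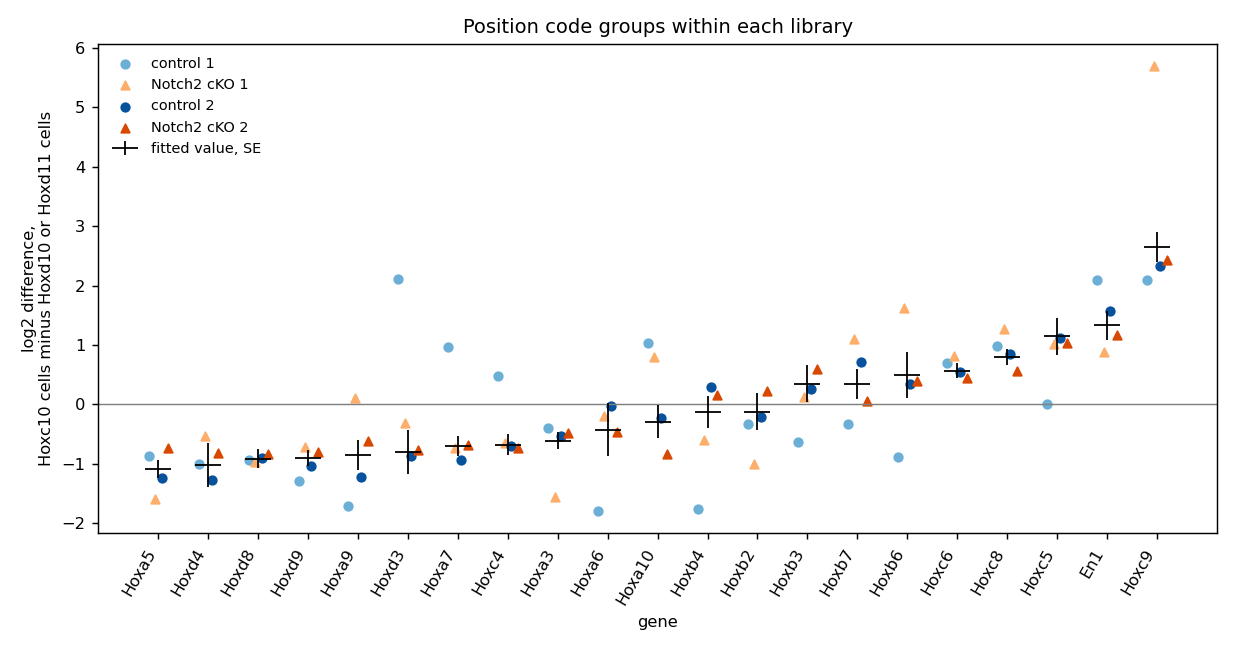
Log2 difference of Hoxc10 cells minus Hoxd10 or Hoxd11 cells for the 20 members that did not define the groups and for En1, with 1 point per library and the fitted value with its SE in black. Hoxc9 (2.65) lies farthest out; the Notch2 cKO 1 point of Hoxc9 is set against 0 UMIs in the Hoxd cells, so its height depends on the prior count. Hoxa5, Hoxd8 and Hoxd9 lie below 0 in all 4 libraries.

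Partners of the Hox proteins and other position factors were read from the same genotype fit. Of 9 cofactors of the Pbx, Meis and Pknox families, all tested, 1 rose and none fell in Notch2 cKO cells, beside 1.66% of all genes up and 1.31% down (median log2 difference 0.07, against 0.02 over all genes). That gene was Pbx3, at 32.8, 83.1, 156 and 290.4 CPM (1.06 ± 0.22, edgeR adjusted p = 0.026). It was higher in the cKO library of each batch, but control 2 exceeded Notch2 cKO 1, and the call was lost whichever library was left out. Those fits had no batch block, so they do not separate genotype from batch, and Pbx3 rose by 1.91 from batch 1 to batch 2. The difference was 0.21 without control 1, 1.52 without Notch2 cKO 1, 2.31 without control 2 and -0.16 without Notch2 cKO 2. Within batch 1 the difference of Notch2 cKO minus control was 1.34, and within batch 2 it was 0.79. Of 21 testable position and limb factors, 1 rose and none fell (median -0.13). It was Prrx2, a homeodomain factor of limb and skin mesenchyme, at 10.9, 20.6, 7.90 and 23.0 CPM (1.19 ± 0.23, edgeR adjusted p = 0.017), with both cKO libraries above both controls. This call, too, was lost whichever library was left out, in fits with no batch block (differences of 0.84 to 1.46). Without TMM factors, and with doublet-like cells kept, the edgeR adjusted p was 0.14 and 0.072 for Prrx2, and 0.13 and 0.11 for Pbx3. None of 17 chromatin regulators, 3 factors of visceral lymphoid organs and 6 RNA genes of the Hox clusters was called by edgeR. The spleen factors Tlx1 and Nkx2-3 had 1 UMI each in all 4 libraries together.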

How the data were processed

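Lymph node stromal cells of 2 control and 2 Notch2 cKO libraries were analysed. The deposited matrices hold raw UMI counts per gene and cell, made by the authors with Cell Ranger. Per the file headers the version was 5.0.1 in batch 1 and 7.1.0 in batch 2; the submitters' processing notes give 5.0.1 and mm10. Intron counting is not stated in them.

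Cells with at least 500 genes and 1000 UMIs and at most 10% mitochondrial UMIs were kept. The doublet score was a nearest-neighbour comparison with simulated doublets, and its top cells, 0.8% per 1000 cells of a library (6.26% to 13.6%), were set aside because the automatic cut called at most 1 cell a library. The 26 clusters were named from marker genes. CPM is UMIs per 1000000 UMIs of the cells named.

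Counts were summed per library and tested with edgeR 4.0.16 (quasi-likelihood, TMM, filterByExpr; DESeq2 1.42.0 as the alternative), adjusted over all genes tested, with a threshold of 0.05. The batches are given by the study's design, and each holds 1 control and 1 cKO library, so batch was the block. In the genotype and batch comparisons, fits with 1 library left out had no block. Libraries are pools, so p-values cover the spread between pools. Named genes were the members, with full values for those called, the limb factors and the 12 highest; pairs were the 8 highest and 8 lowest with 4 libraries on 1 side of 1. Results of 2 genes are not reported here. Scripts were tested on simulated data. The members, lists and code groups were chosen with earlier results of these data known. Promoters are RefSeq's (GRCm38.p6) and gene models GENCODE M21.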

Additional observations from a re-analysis of the deposited data

Results flagged for a closer look

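In 4 members the Notch2 cKO to control ratio of CPM lay on opposite sides of 1 in the batches, with counting intervals that excluded 1 in both. Hoxb7 was lower in Notch2 cKO cells of batch 1 (ratio 0.68, 95% interval for counting error 0.57 to 0.82) and higher in batch 2 (1.64, 1.498 to 1.801). Hoxa7, its paralogue, had the same order of signs with a smaller size (0.75, 0.67 to 0.84, and 1.06, 1.00 to 1.12). On the TMM-scaled log2 scale of the fit Hoxa7 was at -0.42 and -0.015, so its batch 2 sign changed with the scaling, whereas Hoxb7 (-0.55 and 0.62), Hoxd10 (0.98 and -0.81) and Tbx5 (1.33 and -1.21) kept opposite signs. Hoxd10 was higher in batch 1 (2.01, 1.24 to 3.34, from 61 and 25 UMIs) and lower in batch 2 (0.60, 0.42 to 0.84, from 55 and 95 UMIs). Tbx5 was higher in batch 1 (2.59) and lower in batch 2 (0.45). Adventitial-like cells were 5.98% and 14.98% of fibroblast-like cells in control 1 and Notch2 cKO 1, and 9.44% and 12.4% in control 2 and Notch2 cKO 2. Their cluster led by Pi16, at 24.3 CPM of Tbx5, held 78 of 7891 and 255 of 6790 fibroblast-like cells in batch 1, and 181 of 12100 and 83 of 9590 in batch 2. The share of this cluster moved with the Tbx5 ratio in both batches, and that of the whole class in batch 1; their part in the result was not tested. With 1 library per genotype and batch, the difference between batches was not tested, and the intervals do not cover the spread between pools.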

How the results depend on the processing

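In the batch comparison, instead of 8, 2 members were called by DESeq2, 2 without TMM factors, 4 with the stricter cell filter and 4 without clusters 7, 10 and 19 (chosen after seeing the data), and 0 to 0 when 1 library was left out; every gene called was among the 8. Without TMM factors the median of all genes moved from 0.02 to 0.13. In the genotype comparisons 0 members were called under every alternative, including the fits with no replicate block (0 in all fibroblast-like, 0 in T-zone reticular-like and 0 in Tbx5 cells). In the code groups, which were blocked by library, 0 genes were higher in Hoxc10 cells and 1 in Hoxd cells with no replicate block. For these groups, all of whose alternatives were chosen after seeing the data, DESeq2 called 32 and 29, T-zone reticular-like cells alone gave 54 and 72, and leaving out 1 library gave 28 to 110 and 49 to 116. Leaving out 1 library, with no batch block in the fit, moved Pbx3 between -0.16 (without Notch2 cKO 2) and 2.31. The median share of cells with a UMI over the 12 highest members was 5.60% at 2000 UMIs, 2.93% at 1000, 8.05% at 3000 and 12.6% without thinning. Of the 15 named pairs, 10 kept their side of 1 over the libraries together at 1000 UMIs and 10 without thinning. Pairs that crossed 1 at 1000 UMIs were Hoxa2 with Hoxa7 (1.25), Hoxa7 with Hoxb4 (1.13), Hoxa7 with Hoxd3 (1.02), Hoxa7 with Hoxd4 (1.11) and Hoxb2 with Hoxc10 (1.32). Without thinning the same 5 were at 1.298, 1.29, 1.19, 1.14 and 1.23, and at 3000 UMIs the first 3 were at 1.03, 1.20 and 1.15. Hoxb2 with Hoxc10 was at 1.19 in T-zone reticular-like cells, and with doublet-like cells kept it was at 1.12 and Hoxa7 with Hoxd4 at 1.02. The cause of these changes was not tested. The comparisons of Pitx1 or Tbx4 cells with Tbx5 cells, and of genotypes within Pitx1 or Tbx4 cells, were not run, since 11 cells had either gene. Depth limits the low members: with median UMIs of 2084 to 7915, a missing UMI in a cell does not show a missing transcript.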
